A study of Mus musculus with 24 samples.

Results

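The nuclear factor I family comprises 4 mouse genes, Nfia, Nfib, Nfic and Nfix, and this account gives the histone mark H3K9me2 over each of them in preconditioned mouse hearts. A region of the deposited tables was taken as a member if it overlapped the gene or lay within 2 kb of it in the RefSeq annotation of mm10, which gave 49 of 53386 regions. The genes were selected on results of these data: 1 of them was low against input and rich in gene-end regions, which was taken to be Nfic, with no record of the biopsy used, and a region inside Nfia had the lowest log2 fold change between the biopsies. Nfia held 10 regions, Nfib 6, Nfic 10 and Nfix 23.

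Nuclear factor I proteins are transcription factors that bind DNA as dimers at a palindrome of TTGGC, and can bind a lone copy of these letters more weakly. They are known mainly from development: Nfia from the formation of glia, Nfib from lung maturation and brain development, Nfic from the formation of tooth roots, and Nfix from the switch between embryonic and fetal programmes in skeletal muscle. H3K9me2, dimethylation of histone H3 at lysine 9, is deposited mainly by the methyltransferases G9a and GLP. It covers broad stretches of silent chromatin and is typically low over the start sites of active genes.

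The hearts came from 6 C57BL6 mice aged 12 months, 3 female (mice 17, 19 and 30) and 3 male (22, 23 and 27). All had ischemic preconditioning, in which the left coronary artery was tied reversibly for 5 min and released for 5 min, 4 times over, with a last reperfusion of 30 min. Each heart gave a biopsy of the area at risk (AAR), the muscle fed by the tied artery, and one of the remote myocardium (RM), and each biopsy gave an H3K9me2 library and an input library of unprecipitated chromatin. The 4 groups of 6 libraries were therefore AAR H3K9me2, RM H3K9me2, AAR input and RM input. A sham operation is also named in the design, but sham hearts were not analysed here, so that both biopsies are from preconditioned hearts and the remote tissue is no untreated control.

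Counts in the listed regions summed to between 416683 and 1196368 per AAR H3K9me2 library, 443261 and 981763 per RM H3K9me2 library, 1286383 and 2478668 per AAR input library and 1405503 and 1770520 per RM input library. Levels are given as CPM (counts scaled to 1000000 of these totals), and they are shares: a region lower in H3K9me2 than in input holds a smaller share of the reads of precipitated chromatin. Each biopsy mixes cell types, and fewer cells carrying the mark cannot be told apart from less mark per cell. Libraries of the H3K9me2 groups had 0 to 45 reads in the single regions named here, so that the precision of single values is low. A region was called higher or lower at an adjusted p (Benjamini-Hochberg, over all regions tested) under 0.05 in edgeR's two-sided quasi-likelihood test, with 6 libraries in each group.

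The genes differed in how the listed regions lay on them. Nfia (chromosome 4, 97578066 to 98118876, plus strand) spans 540.8 kb and had 1.85 regions per 100 kb, covering 4.44% of the gene, while Nfib (chromosome 4, 82290173 to 82506751) spans 216.6 kb and had 2.77 per 100 kb, covering 5.52%. Nfic (chromosome 10, 81396191 to 81431919, minus strand) spans only 35.7 kb and had 28.0 per 100 kb, covering 78.7%. Nfix (chromosome 8, 84704712 to 84801238, minus strand) spans 96.5 kb and had 23.8 per 100 kb, covering 67.9%. Within 500 kb on either side there was 1 further region around Nfia and 3 around Nfib, against 151 around Nfic and 99 around Nfix. The 4 genes thus fell into 2 pairs, long genes with sparse regions and short genes nearly tiled by them.

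Of the 49 regions, 8 were at a gene end (no more than 2 kb from an end of the member gene itself) and 41 in the gene body. No read was listed in any library for 9 of them, 1 in Nfib, 3 in Nfic and 5 in Nfix, all of which overlap another listed region; of all 53386 regions 5261 were without a read. Overlapping regions were common in Nfic (7 of 10) and Nfix (13 of 23), occurred in Nfib (2 of 6) and were absent in Nfia. The counts of overlapping regions may be incomplete, alike in all libraries.

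Start sites were listed for 3 of the 4 genes in the RefSeq promoter table (mm10), and 2 promoters of 300 bases, 250 before and 50 after the start, were touched by a member region. They are shown because these regions differed in their level against input, and because they differ in CpG content; capitals mark CpG dinucleotides.
Nfic promoter, chr10:81427124-81427423, minus strand: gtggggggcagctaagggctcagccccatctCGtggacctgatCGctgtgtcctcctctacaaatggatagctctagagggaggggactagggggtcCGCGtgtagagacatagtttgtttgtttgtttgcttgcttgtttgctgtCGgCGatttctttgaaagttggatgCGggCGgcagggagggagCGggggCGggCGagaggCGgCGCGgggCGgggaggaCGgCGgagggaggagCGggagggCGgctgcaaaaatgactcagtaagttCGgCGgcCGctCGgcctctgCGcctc
Nfix promoter, chr8:84772826-84773125, minus strand: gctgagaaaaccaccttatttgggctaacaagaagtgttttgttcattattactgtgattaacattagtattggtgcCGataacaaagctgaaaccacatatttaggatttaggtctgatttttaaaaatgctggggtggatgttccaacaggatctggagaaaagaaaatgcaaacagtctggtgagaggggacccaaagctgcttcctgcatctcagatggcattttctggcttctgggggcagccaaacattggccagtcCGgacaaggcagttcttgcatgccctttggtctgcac
The Nfic promoter had 24 CpGs and 63% G and C, more CpGs than 80.02% of the 32851 promoters in the table, whose median was 7 CpGs and 52.7% G and C. The Nfix promoter had 2 CpGs and 44.3% G and C, with 14.1% of promoters holding fewer. The family's own letters, TTGGC or on the other strand GCCAA (a stretch where both overlap counts under both), were not in the Nfic window and occurred 2 times in the Nfix window, and 46.7% of all promoters held it. The full palindrome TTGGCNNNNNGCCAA was in none of the promoters of Nfia, Nfic and Nfix, and in 0.0365% of all promoters. Nfix had 3 other listed starts with 4 to 13 CpGs, and the listed Nfia promoter had 2 CpGs and lay 26.9 kb from the nearest member region.

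Levels per length, over the members that overlap no other region, showed the contrast between the genes. The 10 Nfia regions had median levels of 11.1 CPM per kb in AAR H3K9me2, 12.5 in RM H3K9me2, 8.75 in AAR input and 8.23 in RM input. The 4 Nfib regions had 10.1 CPM per kb in AAR H3K9me2, 9.56 in RM H3K9me2, 7.98 in AAR input and 7.35 in RM input. In Nfic the 3 such regions had 4.73 CPM per kb in AAR H3K9me2, 4.10 in RM H3K9me2, 9.21 in AAR input and 9.43 in RM input, and the 10 of Nfix had 5.60, 5.52, 9.49 and 9.53 CPM per kb in the same order of groups. The corresponding medians over all 32612 regions that stand alone were 9.05, 9.07, 8.95 and 8.85 CPM per kb. Input levels of the 4 genes thus lay near each other, and the H3K9me2 levels of Nfic and Nfix were the ones below their input.

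**Figure D1:**
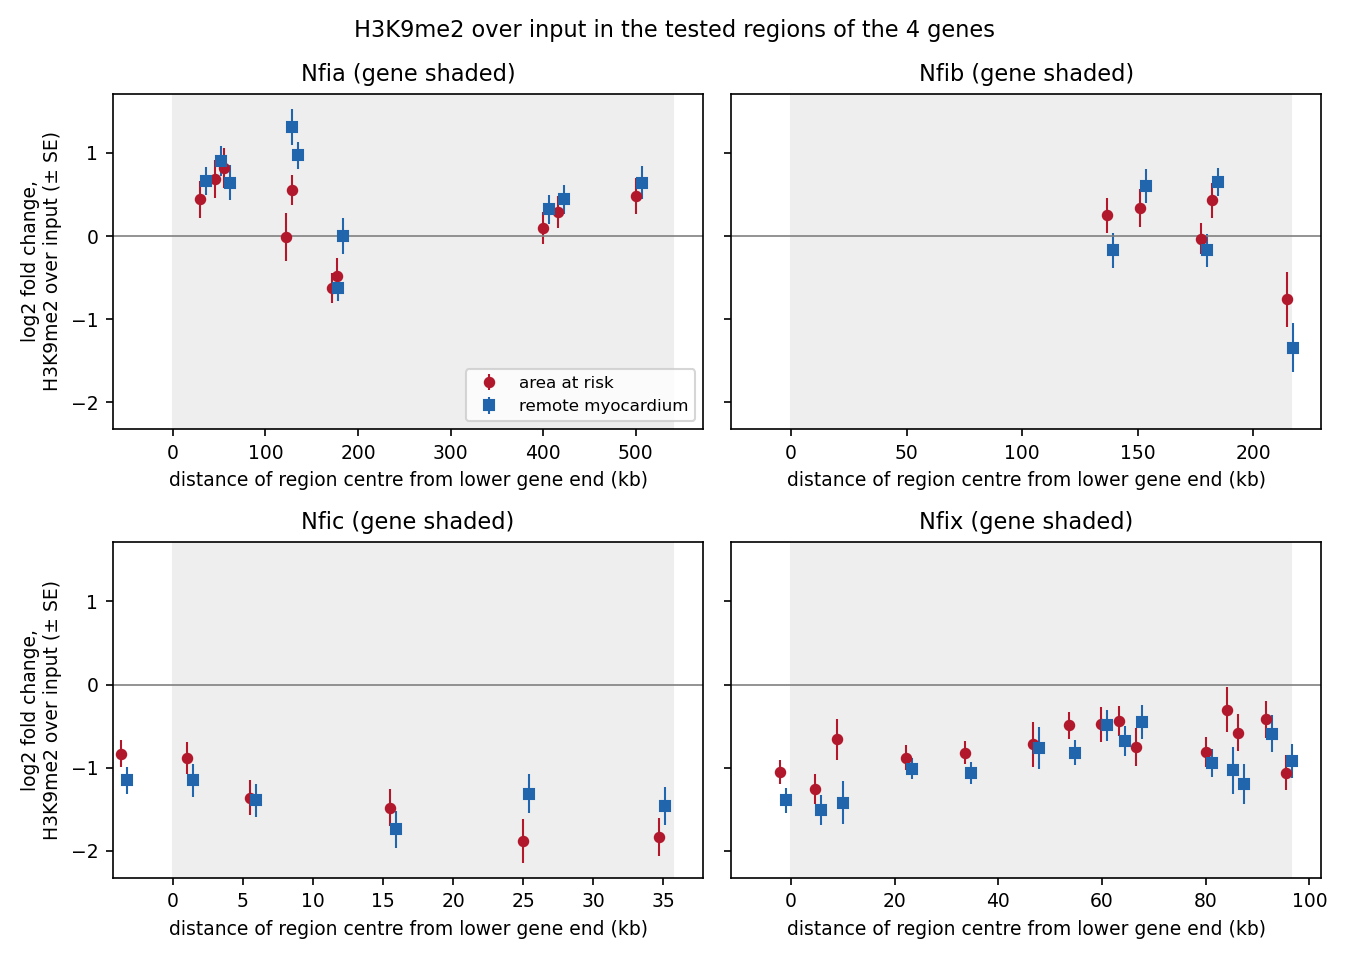
Log2 fold change of H3K9me2 over input (vertical axis, ± SE) for each tested member region against the distance of its centre from the lower end of the gene (kb), with the area at risk as red circles and the remote myocardium as blue squares; markers are shifted sideways so that they do not hide each other, and the gene is shaded. All tested regions of Nfic and Nfix lie below 0 in both biopsies, while most of Nfia lies above 0 in the remote myocardium.

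In the remote myocardium, 9 of 36 tested members were called higher in H3K9me2 relative to input, and 22 lower. Of all 40767 regions tested there, 20.5% were higher and 20% lower. The median log2 fold change was -0.72 over the members and 0.01 over all regions, with members between -1.74 and 1.31. In 4 members every H3K9me2 library was above every input library and in 17 every one was below; among all regions these patterns had shares of 6.84% and 8.46%. The Nfic values and that of the Nfia region at 97702800 belong to what picked the genes and are included in these counts as description. Members low in H3K9me2 could enter the test through input reads alone, as could any region.

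Nfia held a larger share of the H3K9me2 reads than of the input reads in most of its tested regions. Of its 9 regions other than the picked one, 6 were higher and 1 lower in RM H3K9me2 than in RM input, with a median log2 fold change of 0.64. The region at 97709000 to 97711999, 132.4 kb into the gene, had 22.6, 37.1 and 56.1 CPM (lowest, median and highest library) in RM H3K9me2, against 14.2, 18.8 and 26.6 CPM in RM input. It was higher in 6 of 6 mice although the groups overlapped, with a log2 fold change of 0.97 (SE 0.16, adjusted p = 1.78e-07). The region at 97625200 to 97627199 had 20.4, 30.8 and 47.4 CPM in RM H3K9me2, against 14.9, 15.6 and 19.7 CPM in RM input, and there the groups did not overlap (log2 fold change 0.90, SE 0.18, adjusted p = 1.30e-05). The remaining regions of Nfia called higher had log2 fold changes of 0.44 to 0.66.

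A single called region of Nfia differed in the other direction. It lies at 97750800 to 97754999, 174.8 kb into the gene, and also overlaps the gene model Gm38709; it had 18.9, 22.0 and 29.4 CPM in RM H3K9me2, against 29.6, 34.9 and 44.3 CPM in RM input. No library of the RM H3K9me2 group reached the lowest input library (log2 fold change -0.62, SE 0.16, adjusted p = 9.59e-04). Its neighbour at 97757200 to 97759599, over the same gene model, had a log2 fold change of 0.00 (SE 0.22).

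Nfib was mixed. Of its 5 tested regions 2 were higher, 1 was lower and 2 did not pass the test in the remote myocardium. The region at 82472200 to 82474999 had 21.9, 30.6 and 39.2 CPM in RM H3K9me2, against 15.7, 19.5 and 19.9 CPM in RM input, without overlap (log2 fold change 0.65, SE 0.17, adjusted p = 0.00117). The region at the upper gene end, 82504200 to 82508599, had 2.50, 5.82 and 8.15 CPM in RM H3K9me2 and 12.5, 14.4 and 16.9 CPM in RM input. These were 2 to 8 reads per RM H3K9me2 library, and the groups did not overlap (log2 fold change -1.34, SE 0.29). The region was tested only through its input reads, 19 to 30 per RM input library, so its call is a description. It is the only Nfib member at a gene end with reads, and it also lies over the gene model Gm11266.

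Nfix was below input in every tested region. All 15 tested regions had a log2 fold change below 0 in the remote myocardium, between -1.51 and -0.45, and 14 of them passed the test. Some, such as 84713200 with 1 to 10 reads per RM H3K9me2 library, were tested only through their input reads. The region at the lower gene end, 84700200 to 84705999, had 16.2, 21.2 and 36.1 CPM in RM H3K9me2, against 49.8, 54.9 and 69.7 CPM in RM input. Every RM H3K9me2 library was below every RM input library (log2 fold change -1.39, SE 0.15, adjusted p = 6.51e-15); this region also touches Lyl1, a blood cell transcription factor, and Trmt1, a tRNA methyltransferase. Beside it, 84707800 to 84712199 had 8.71, 11.8 and 19.4 CPM in RM H3K9me2, against 34.8, 41.6 and 44.5 CPM in RM input (log2 fold change -1.51, SE 0.18, adjusted p = 6.18e-13). The opposite end, 84799200 to 84802199, had 10.2, 12.8 and 18.05 CPM in RM H3K9me2 and 20.6, 25.1 and 30.9 CPM in RM input (log2 fold change -0.92, SE 0.20, adjusted p = 9.61e-05).

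The Nfix region that holds the start and part of the promoter printed above had the log2 fold change closest to 0 of the gene in the remote myocardium. The margin was small: the authors' deposited values, input over H3K9me2, were 0.44 here and 0.48 at 84763800. At 84770600 to 84772999 the levels were 12.5, 13.4 and 18.6 CPM in RM H3K9me2 and 16.0, 20.2 and 25.2 CPM in RM input. The groups overlapped and the test was not passed (log2 fold change -0.45, SE 0.21, adjusted p = 0.0786), although H3K9me2 was lower in 6 of 6 mice. The same region had 4.80, 12.2 and 18.4 CPM in AAR H3K9me2, against 13.7, 23.1 and 29.1 CPM in AAR input; it is among the members called lower there, with a log2 fold change of -0.75 given as description.

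Nfic, the shortest gene, had the lowest levels against input. Its 6 tested regions had log2 fold changes of -1.88 to -0.83 in the area at risk and -1.74 to -1.15 in remote myocardium; they are given without a test. The region at 81428400 to 81433799, over the upper end of this minus-strand gene and within 2 kb of its listed start, had 3.60, 8.18 and 13.4 CPM in AAR H3K9me2 and 2.50, 9.05 and 13.2 CPM in RM H3K9me2, against 24.1, 28.8 and 34.6 CPM in AAR input and 20.1, 25.8 and 28.3 CPM in RM input. In both biopsies every H3K9me2 library lay below every input library, with log2 fold changes of -1.83 (SE 0.23) in the area at risk and -1.46 (SE 0.23) in the remote myocardium.

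The region that covers the listed Nfic start and the printed promoter, 81415000 to 81427799, had 2.97, 4.91 and 10.01 CPM in AAR H3K9me2, 2.50, 9.73 and 17.3 CPM in RM H3K9me2, 18.7, 23.8 and 27.0 CPM in AAR input, and 20.6, 23.7 and 32.5 CPM in RM input. Its log2 fold change was -1.88 (SE 0.26) in the area at risk and -1.31 (SE 0.23) in the remote myocardium, from 2 to 10 reads per AAR H3K9me2 library. In the gene body, 81409400 to 81414399 had 7.20, 8.63 and 20.1 CPM in AAR H3K9me2 and 0, 8.24 and 16.0 CPM in RM H3K9me2, against 24.6, 32.4 and 37.3 CPM in AAR input and 23.7, 31.0 and 36.7 CPM in RM input. This was the lowest member of the remote myocardium at -1.74 (SE 0.22), and -1.48 (SE 0.22) in the area at risk. The Nfic member farthest out was 81390400 to 81394999, 1.19 kb below the gene and also near Smim24, with -0.83 in AAR, the highest of the gene there, and -1.15 in the remote myocardium. The next region out, at 6.39 kb and so beyond the 2 kb limit, had -0.93 and -1.06 in the same order; the nearest one beyond the limit at Nfix, at 2.16 kb, had -0.38 and -0.29.

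**Figure D2:**
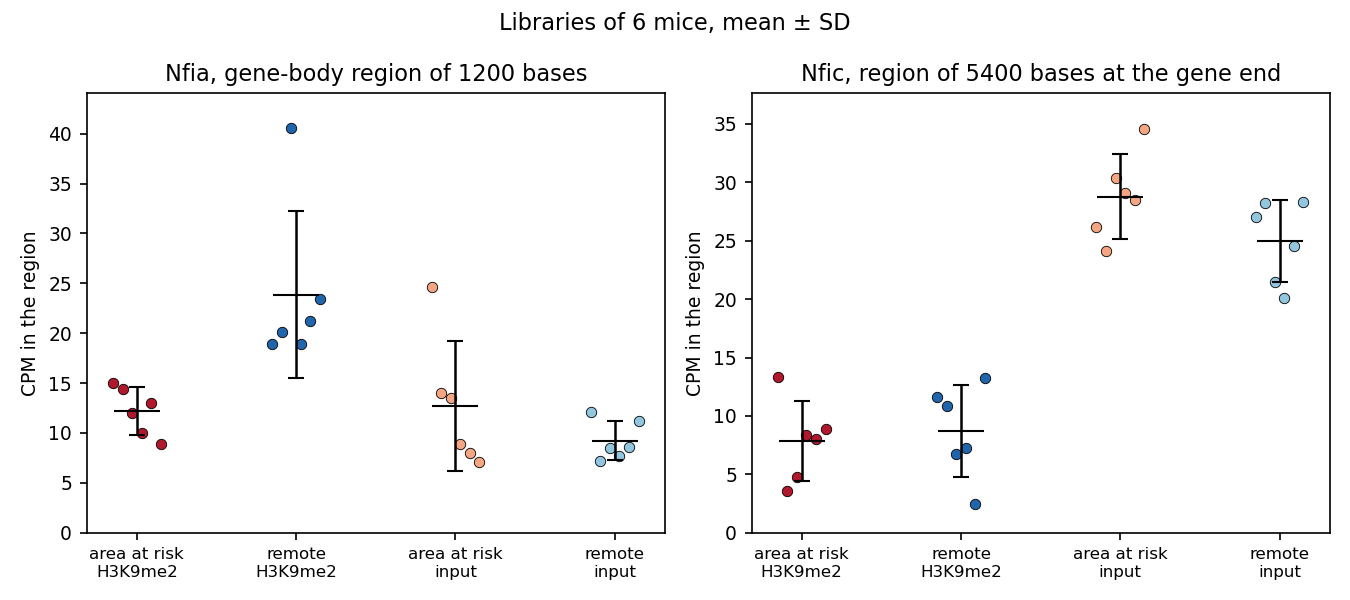
CPM of each library (points, vertical axis) with the mean ± SD of 6 mice, in the 4 groups, for the Nfia region at 97702800 (left) and the Nfic region at 81428400 (right). In Nfia the remote H3K9me2 libraries stand above the others except for 1 area-at-risk input library; in Nfic both H3K9me2 groups lie below both input groups.

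The rule may have drawn on AAR H3K9me2 over AAR input, so that its counts are a description: 3 of 36 tested members were higher than input and 17 lower; 11.3% of all 40928 tested regions were higher and 12.3% lower. The 3 higher ones were all in Nfia, at 97625200, 97636000 and 97709000, with log2 fold changes of 0.69, 0.82 and 0.55. The highest of them, 97636000 to 97637599, had 14.2, 24.01 and 43.2 CPM in AAR H3K9me2, against 9.28, 13.3 and 23.9 CPM in AAR input, and in the remote myocardium its log2 fold change was 0.64 (SE 0.21, adjusted p = 0.00803). The 17 lower ones were 10 of 15 tested in Nfix, all 6 in Nfic and the Nfia region at 97750800 (-0.63). Medians per gene were 0.36 in Nfia, 0.25 in Nfib, -1.42 in Nfic and -0.72 in Nfix in the area at risk, and 0.64, -0.17, -1.35 and -0.94 in the remote myocardium.

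At a gene end, 3 members each were tested in Nfic, which was chosen as rich in such regions, and in Nfib and Nfix together. Those of Nfib and Nfix were all lower in the remote myocardium, with a median log2 fold change of -1.34, where 32% of all 16271 tested regions at an end of any annotated gene were lower and 12.1% higher (median -0.20). In the area at risk 2 of these 3 were lower, against 21.8% of all such regions, and the 3 of Nfic were lower in both biopsies, as description. The Nfib one was tested only through its input reads in both biopsies. In the gene body, 9 of 30 tested members were higher and 16 lower in the remote myocardium (median -0.54), and 3 were higher and 12 lower in the area at risk (median -0.46). Among all tested regions, at any position, 20.5% were higher and 20% lower in the remote myocardium, and 11.3% and 12.3% in the area at risk. The gene-body counts include the picked Nfia region and regions of Nfic, and are a description to that extent. Gene-end members come from Nfib, Nfic and Nfix only, so that position and gene cannot be told apart among them.

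Regions around Nfia, Nfic and Nfix, beyond 2 kb and up to 500 kb, lay mostly on the same side of input as the gene itself. Around Nfic 61 of 91 tested were lower and none higher than input in the remote myocardium, where 20% of all tested regions were lower and 20.5% higher, with a median log2 fold change of -0.63, against -1.35 inside the gene. Around Nfix 30 of 75 were lower and 6 higher (median -0.37, against -0.94 inside). Of the 3 around Nfib 2 were higher, and the single region around Nfia was higher (0.86). The difference between the genes and their surroundings was not tested.

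Summed over its regions, each gene gave a value per library. Nfia had 248 ± 41.3 CPM in AAR H3K9me2, 274 ± 25.8 in RM H3K9me2, 210 ± 36.0 in AAR input and 193 ± 7.28 in RM input (mean ± SD, n = 6 each). Nfib had 95.4 ± 16.9, 92.6 ± 13.3, 87.1 ± 13.1 and 85.5 ± 5.20 CPM in the same order of groups. For Nfic the sums were 76.6 ± 18.3, 72.5 ± 21.0, 193 ± 20.6 and 192 ± 18.3 CPM, and for Nfix they were 289 ± 57.3, 266 ± 32.5, 509 ± 31.1 and 523 ± 4.80 CPM, again in that order. Sums are not per length, and the sum of a gene grows with the number of its regions.

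The log2 ratio of H3K9me2 to input of the same biopsy and mouse ordered the genes. In the remote myocardium it ran from 0.43 to 0.73 in Nfia, from -0.25 to 0.34 in Nfib, from -1.26 to -0.83 in Nfix and from -1.85 to -1.02 in Nfic. The ranges of Nfia and Nfib did not overlap, nor did those of Nfib and Nfix, while Nfix and Nfic overlapped. The sum of Nfia includes the picked region; without it the ratio ran from 0.38 to 0.60, still without overlap with Nfib. AAR ranges were 0.06 to 0.49 in Nfia, -0.47 to 0.60 in Nfib, -1.16 to -0.50 in Nfix and -1.87 to -1.05 in Nfic; there Nfia and Nfib overlapped, and so did Nfix and Nfic.

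When sums were fitted for all genes, scaled to the total over genes, RM H3K9me2 over RM input gave Nfix a log2 fold change of -0.87 (SE 0.05, adjusted p = 1.62e-28) and Nfib 0.20 (SE 0.09, adjusted p = 0.0616). Nfia without its picked region was higher at 0.54 (adjusted p = 2.87e-12), and 0.60 with it; Nfic was at -1.24 (SE 0.09), as description. With the mouse as block, Nfib passed the test too (0.21, adjusted p = 0.0457). Of the 17624 genes tested 27.8% were higher and 27.3% lower, and the median over them was 0.01. The AAR values were 0.33 for Nfia, 0.24 for Nfib, -1.16 for Nfic and -0.67 for Nfix, where 21.3% of 17657 genes were called higher and 21% lower.

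**Figure D3:**
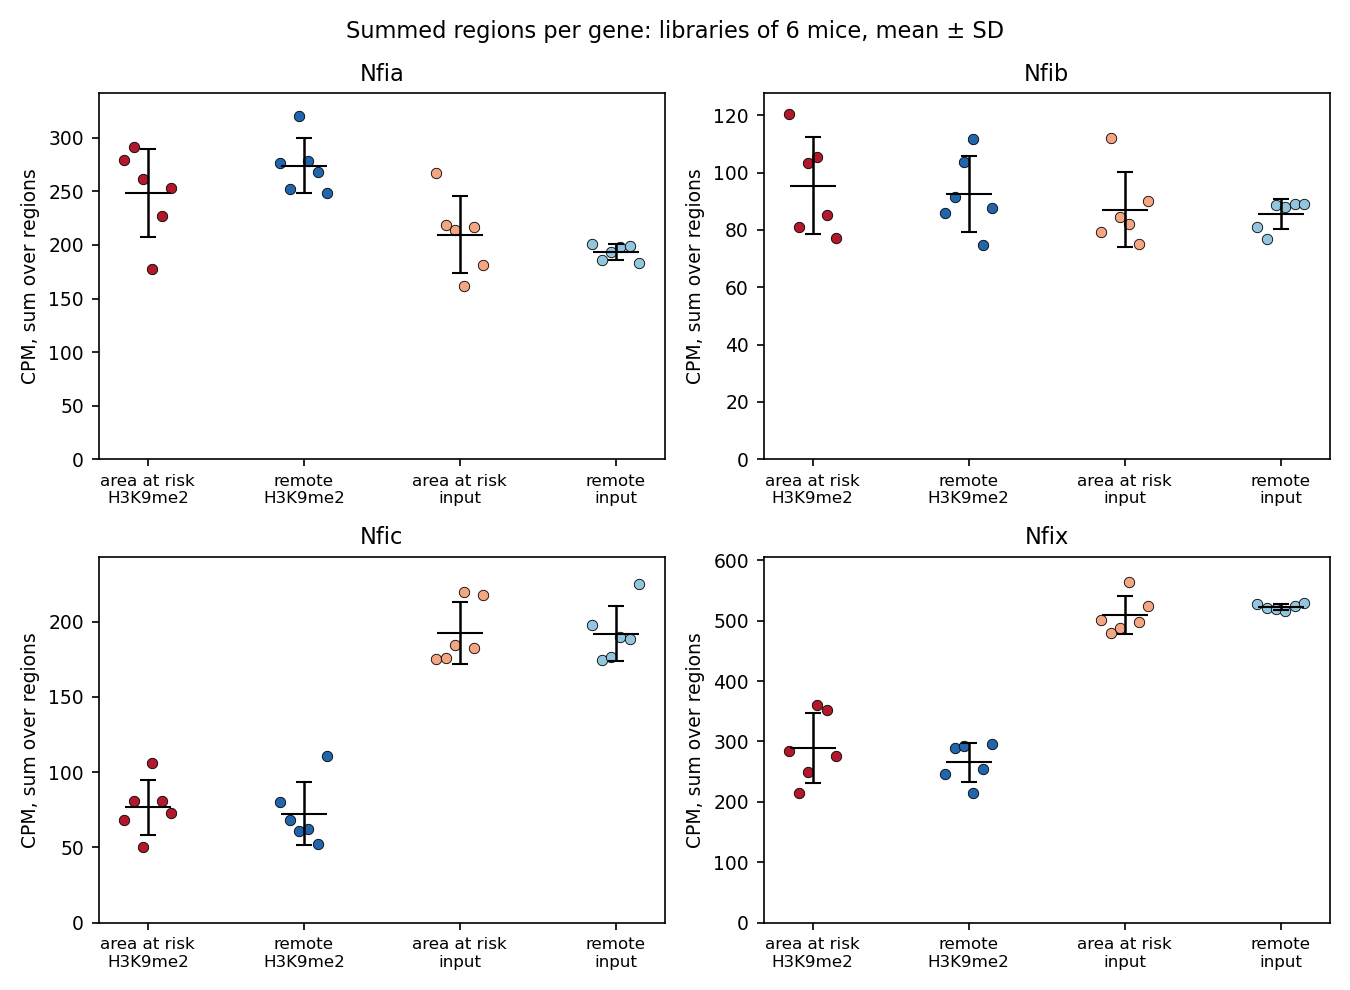
CPM summed over the regions of each gene (vertical axis) per library (points) with the mean ± SD of 6 mice, for the 4 groups. In Nfic and Nfix both H3K9me2 groups lie below both input groups, in Nfib the 4 groups overlap, and in Nfia the remote H3K9me2 libraries lie above all remote input libraries.

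The comparison of the biopsies sets tissue that was made ischemic against remote tissue of the same preconditioned hearts. Ischemia and the site of the biopsy cannot be told apart in it. Between AAR H3K9me2 and RM H3K9me2, 0 of the 23 members tested were called by edgeR or by DESeq2, and 0% of all 31526 regions tested were. At an unadjusted p under 0.05 there was 1 member, the Nfia region picked for this contrast, and none of the other 22, while 4.03% of all regions were under it. Log2 fold changes of these 22 ran from -0.30 to 0.35, with 14 above 0, 8 below, and a median of 0.06. Differences of the size measured here for most members are within the spread of the libraries at this depth.

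The Nfia region at 97702800 to 97703999, 1200 bases long and 125.3 kb into the gene, was picked for this comparison and is given as a description. Its levels in AAR H3K9me2 and RM H3K9me2 were 15.05 and 18.9 CPM in mouse 17, 14.4 and 20.1 in mouse 19, 12.0 and 40.6 in mouse 22, 10.03 and 18.9 in mouse 23, 13.0 and 21.2 in mouse 27, and 8.90 and 23.4 in mouse 30. AAR was lower in 6 of 6 mice and the groups did not overlap. Of all 31526 tested regions 27 (0.0856%) had this pattern in this direction and 26 in the other, and none was called. The log2 fold change was -0.92 (SE 0.25, adjusted p = 0.9993 in edgeR's test), the lowest of all 31526 regions tested, which is what picked the region. It was -0.78 without mouse 22, whose RM library was the highest. The region entered this test only through its RM H3K9me2 reads, the group in which it is high.

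These values rest on 5 to 13 reads per AAR H3K9me2 library and 13 to 23 per RM H3K9me2 library. Females differed by -14.5 to -3.90 CPM (AAR minus RM) and males by -28.6 to -8.20 CPM, ranges that overlap. The inputs of the region ran the other way in most mice: AAR input and RM input had 24.6 and 12.1 CPM in mouse 17, 14.0 and 7.23 in mouse 19, 13.5 and 8.47 in mouse 22, 8.88 and 7.69 in mouse 23, 7.97 and 8.64 in mouse 27, and 7.13 and 11.2 in mouse 30. AAR input was higher in 4 of 6 mice, with a log2 fold change of 0.39 (SE 0.25, adjusted p = 0.9998 in edgeR's test). Over input, the region was at -0.01 in AAR tissue and at 1.31 (SE 0.22) in the remote myocardium, the highest member there. Corrected for input, the biopsy difference was -1.31 on the log2 scale.

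The other members of Nfia were closer to 0 between the biopsies. The region at 97608800 to 97611399 had 18.4, 27.8 and 30.1 CPM in AAR H3K9me2, against 27.5, 31.4 and 40.7 CPM in RM H3K9me2; it was lower in 6 of 6 mice, but the groups overlapped (log2 fold change -0.30, SE 0.19). Of the 8 tested Nfia regions other than the picked one, 6 were below 0. At 97709000, the next member after the picked region, the log2 fold change was -0.22 (SE 0.18), with 3 mice higher and 3 lower.

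At the other extreme stood members of Nfib and Nfix. The Nfib region at 82427200 to 82429199 had 16.3, 21.4 and 23.999 CPM in AAR H3K9me2, against 9.98, 16.6 and 21.7 CPM in RM H3K9me2, with overlap and 4 of 6 mice higher (log2 fold change 0.35, SE 0.24). The gene-end region of Nfix at 84700200 had 21.6, 26.4 and 35.0 CPM in AAR H3K9me2, against 16.2, 21.2 and 36.1 CPM in RM H3K9me2, and was higher in 5 of 6 mice (0.34, SE 0.21). None of the 8 tested Nfix regions was below 0, and both tested Nfic regions were above it (0.25 and 0.31). Other regions of both genes had too few H3K9me2 reads to be tested here. In the authors' deposited table, given as RM over AAR, these went in both directions. Nfic had 0.61 at 81415000 and -0.28 at 81409400, and Nfix had 0.19 at 84718800 and -0.75 at 84788400. Summed by gene, the log2 fold change was -0.17 in Nfia, 0.04 in Nfib, 0.10 in Nfic and 0.15 in Nfix, with 0 genes called here and 0% among 15759. None of the 4 had an unadjusted p under 0.05, and DESeq2 called 0. The Nfia sum includes the region picked for being lowest in this same comparison, so its value is a description.

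**Figure D4:**
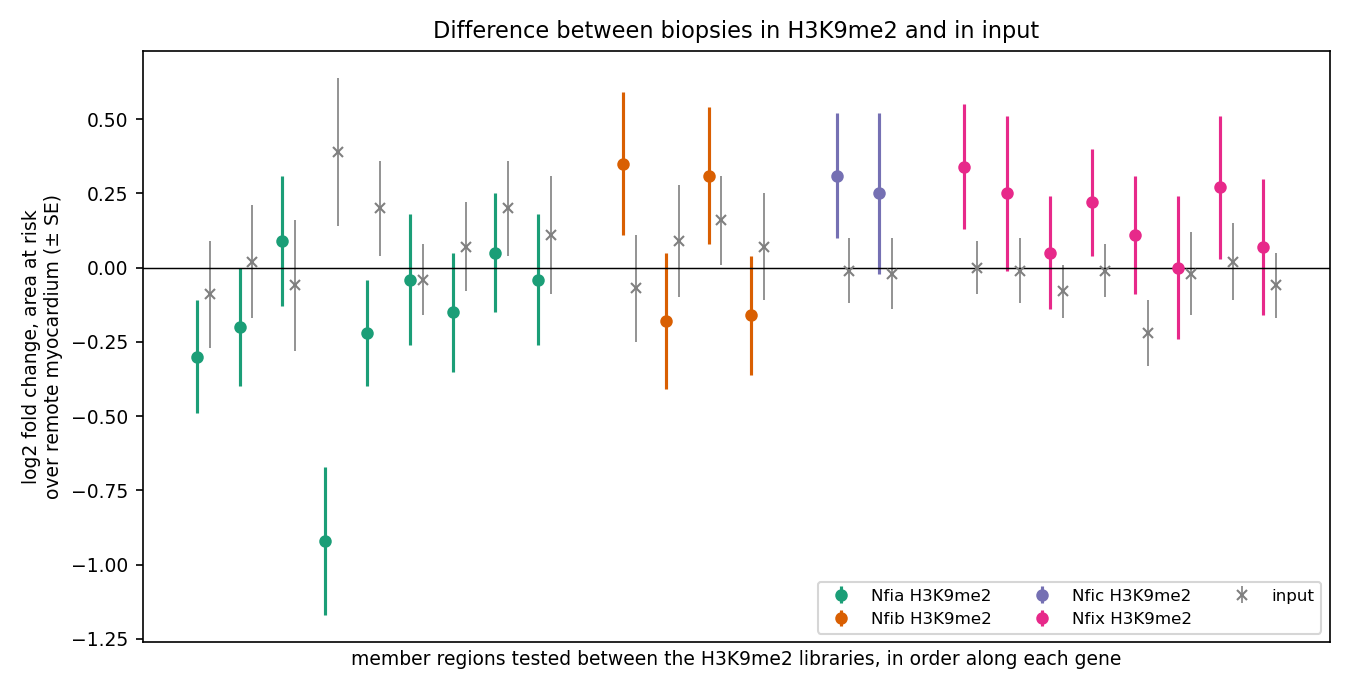
Log2 fold change of the area at risk over the remote myocardium (vertical axis, ± SE) for the 23 members tested between H3K9me2 libraries, in order along each gene (horizontal axis), with the same regions in input as grey crosses. The Nfia region at -0.92 stands apart from the other members, which lie between -0.30 and 0.35.

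Input libraries give the background of this comparison. Between AAR input and RM input 0 of 37 members tested were called by edgeR or by DESeq2, and 0% of 42603 regions. Their log2 fold changes ran from -0.28, at the Nfib gene end at 82504200, to 0.39 at the picked Nfia region. A Nfix gene-body region at 84756400 to 84761399 was the only member with an unadjusted p under 0.05: it had 33.5, 41.1 and 47.3 CPM in AAR input, against 39.0, 49.7 and 53.1 CPM in RM input, with overlap (log2 fold change -0.22, SE 0.11, adjusted p = 0.9998). Next to the extremes stood Nfix at 84718800 (-0.24) and Nfia at 97757200 (0.23), and the smallest p of Nfic was at 81428400 (0.23). Without the picked region the 36 members tested in input ran from -0.28 to 0.23, and the 22 tested between the H3K9me2 groups from -0.30 to 0.35. The 2 sets differ and input libraries held more reads, so these ranges are not a matched comparison.

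Taking the input difference out of the H3K9me2 difference, over all 24 libraries, left 0 of 37 members called by edgeR and 0% of 42445 regions, with 1 member, the picked region, under an unadjusted p of 0.05. After the picked region, the lowest was the Nfic region over the start site (-0.56, SE 0.38). The highest were 2 gene-body regions of Nfix, at 84713200 (0.77, SE 0.40) and 84788400 (0.74, SE 0.41). The first of these had 2.40, 11.3 and 20.02 CPM in AAR H3K9me2, against 2.26, 4.79 and 15.5 CPM in RM H3K9me2, and as few as 1 read in a library of each group. Of the 9 regions of Nfia other than the picked one 8 were below 0, 1 of them by a change of only -0.18%, and in Nfix 14 of 16 were above 0; regions of a gene share their libraries and neighbourhood and are not replicates.

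In the authors' deposited tables, at their own false discovery rate under 0.05, 0 members differed between the H3K9me2 groups and 0 between the inputs. Of the 49 members, the authors' deposited table of the area at risk against input held 16 lower and 2 higher in H3K9me2. That of the remote myocardium held 23 lower and 9 higher. The shares over all regions of the deposited tables were not worked out, so these counts cannot be set against a background.

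Other genes tied to the family were looked up in the same fits. Of 10 partners and upstream factors of nuclear factor I proteins 7 had a tested region, and in the remote myocardium 3 had only lower regions called and 1 only a higher one, Pax7, a muscle stem cell factor named after its values were seen. By regions this was 10 lower and 1 higher of 31, beside 20% lower and 20.5% higher among all regions, with a median log2 fold change of -0.23. Jund, a member of the AP-1 family, had the lowest value in the list (-2.14, SE 0.24, adjusted p = 1.08e-14), and Ski, a corepressor, had 5 lower regions with the smallest p at -1.03 (SE 0.15, adjusted p = 6.93e-09). In the area at risk 9 regions of this list were lower and 0 higher (median -0.20), beside 12.3% and 11.3% of all regions.

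Genes described as targets of the family in other tissues were 9, of which 6 had a tested region, with 4 lower and 1 higher of 11 regions in the remote myocardium (median -0.30), where again 20% and 20.5% of all regions were lower and higher. Ezh2, the H3K27 methyltransferase, was lower, with a log2 fold change of -1.02 (SE 0.23, adjusted p = 1.16e-04), and a region over Apoe, a lipid carrier, was at -0.48 (SE 0.11, adjusted p = 1.56e-04). The 1 higher region was that of S100b (0.48, SE 0.18, adjusted p = 0.0245). In the area at risk 2 regions of these targets were lower and 0 higher (median -0.17). Of 12 other transcription factors of the heart 10 had a tested region, with 14 lower and 8 higher of 49 (median -0.10; all regions 20% and 20.5%), and 11 lower and 2 higher in the area at risk (median -0.13; all regions 12.3% and 11.3%). Mef2d had 6 lower regions (smallest p at -0.93, SE 0.11, adjusted p = 3.15e-14), and Srf 2 (-1.18, SE 0.22, adjusted p = 3.35e-06), in the remote myocardium. The 8 higher regions there were 5 of Tead1, which also had 1 lower, and 3 of Tbx5. Between the biopsies 0 regions of the 3 lists were called by edgeR, with 2, 0 and 0 regions at an unadjusted p under 0.05.

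Marker genes bear on the labelled tissue only through this mark. In the remote myocardium, cardiomyocyte markers had 9 of 19 tested regions lower than input and 1 higher, fibroblast markers 4 of 7 lower, endothelial markers 2 of 13 lower and leukocyte markers, through Cd68 alone, 2 of 2 lower. AAR counts were 5, 1, 3 and 1 lower and 0, 0, 1 and 0 higher. Single genes gave most of these regions. In the remote myocardium Atp2a2 held 6 of the 9 lower cardiomyocyte regions, Col1a1 3 of the 4 fibroblast ones and Pecam1 the 2 endothelial ones. By gene, 3 of 7 tested cardiomyocyte markers had only lower calls there, 1 only a higher one and 3 none. In the area at risk Atp2a2 held 3 of the 5. Among all regions 20% were lower and 20.5% higher in the remote myocardium, and 12.3% and 11.3% in the area at risk, so that the endothelial count in the remote myocardium was near the share over all regions. The part of cell composition in the levels of the 4 genes was not tested.

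The regions elsewhere whose log2 CPM over the 24 libraries was most like that of each gene's leading region were chosen among 32097 regions. For the picked Nfia region they lay in Alk (r = 0.81) and Gramd1b (0.78), for Nfib at 82427200 in Knop1 and Vps35l (0.73) and Traf6 (0.72), for Nfic at 81390400 in Fam178b and Sema4c (0.95) and Kmt2d (0.94), and for Nfix at 84700200 in Ccr10, Cntnap1 and Plekhh3 (0.94) and Fes and Furin (0.94). The points share their libraries, the depth of these and the split into H3K9me2 and input groups.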

How the data were processed

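H3K9me2 and input libraries of both biopsies of 6 mice were compared. The deposited tables, 4 in number, share 1 list of mm10 regions and hold 12 columns of read counts each, whole and unscaled as their values show. A log2 fold change, a log2 mean CPM and a p-value and FDR stand beside them, per the file headers. The submitters' processing notes list Bowtie2 2.2.2, SICER 1.1 (which calls broad domains) and edgeR but give no roles. How overlapping regions and duplicate reads were handled is not given in the sources used here. The deposited fold changes have the opposite sign to those used here.

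Members, lists, tests and named regions (per gene and contrast the smallest p, the highest and lowest values per contrast, regions near a start) were chosen with earlier results of these data known. Contrasts were fitted over all regions with edgeR 4.0.16 (R 4.3.3): TMM, filterByExpr, two-sided quasi-likelihood test, Benjamini-Hochberg adjustment. The correction for input is an interaction over 24 libraries. Gene sums add the counts of all regions of a gene and were fitted over all genes. The tests between the H3K9me2 groups and of RM H3K9me2 over RM input were checked on simulated data. There the changed regions had more expected reads than the members of lowest counts. The other contrasts and the gene sums were not simulated. Alternatives included the mouse as block, DESeq2 1.42.0, other scaling, no filter and each mouse left out. Mouse numbers name the same animal in all groups, so they pair the libraries by design; deviations of a mouse's libraries from their group means had correlations of -0.18 to 0.06 between the H3K9me2 groups, -0.01 to 0.17 and 0.01 to 0.08 between H3K9me2 and input, and -0.08 to 0.03 between inputs. Similar regions were ranked by Pearson's r of log2 CPM after TMM scaling.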

Additional observations from a re-analysis of the deposited data

Results flagged for a closer look

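Of 96 groups of 6 libraries examined, over 20 regions and the 4 gene sums, 7 had a library far from the others, where chance gives about 1 in 20. In H3K9me2 the RM library of mouse 22 had 40.6 CPM in the Nfia region at 97702800, with the nearest library at 23.4 CPM, and without this mouse the log2 fold change between the biopsies there was -0.78, against -0.92 with it. In the Nfia region at 97608800 the AAR library of mouse 23 had 18.4 CPM, below the nearest at 26.4 CPM. The AAR library of the same mouse was the highest in the Nfic region at 81409400, with 20.1 CPM against 9.004 CPM in the next. In the Nfia region at 97757200 the AAR library of mouse 30 had 22.2 CPM, with the nearest at 14.4 CPM.

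The other 3 were input libraries. Mouse 19 had 17.1 CPM in AAR input at the Nfib gene end at 82504200 (nearest 12.3 CPM), mouse 23 had 52.0 CPM in AAR input in the Nfix region at 84707800 (nearest 39.5 CPM), and mouse 30 had 32.5 CPM in RM input in the Nfic region over the start site at 81415000 (nearest 25.0 CPM).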

How the results depend on the processing

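Over the counts of called members and genes, 164 of 175 alternative values stayed within 1.5 times the value reported, and of 494 values for single regions and gene sums 475 kept their direction and their side of the threshold. Members higher than input in the area at risk, 3 as reported, were 5 with the mouse as block, 1 at a false discovery rate of 0.01, and 1 to 3 with a mouse left out (1 without mouse 30). Restricting to members that overlap no other region left 11 of 17 lower in the area at risk and 13 of 22 in the remote myocardium, since fewer members were counted. Gene sums called higher in the area at risk, 1 as reported, were 2 with the block, 0 with DESeq2, 0 at a false discovery rate of 0.01 and 1 to 2 with a mouse left out; in the remote myocardium 1 became 2 with the block and 1 to 2 with a mouse left out. These changes concern Nfia (DESeq2 adjusted p = 0.0645) and Nfib, and their cause was not tested. Small gene sum differences changed sign with a mouse left out: between the H3K9me2 groups Nfib ran from -0.04 (without mouse 17) to 0.08 and Nfic from -0.08 (without mouse 23) to 0.32, and between inputs Nfib ran from -0.08 (without mouse 19) to 0.06 and Nfic from -0.02 (without mouse 23) to 0.06. The Nfib gene end in the area at risk (-0.76), tested only through its input reads, passed the test with the block (-0.82, adjusted p = 0.0376) and without mouse 23 (-1.37, adjusted p = 0.00735). Apart from the Nfib gene end and the gene sums of Nfib, the block changed no call among the single results checked. Not every contrast of a named region was checked singly, and the members behind the rise from 3 to 5 with the block are not named. DESeq2 was not run for the difference corrected for input. The low read numbers per region limit what can be seen between the biopsies.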
